A study of Rattus norvegicus with 16 samples.

Results

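Transcripts of 9 genes that write, remove or read DNA methylation were followed in rats after traumatic brain injury: the methyltransferases Dnmt1, Dnmt3a and Dnmt3b, the dioxygenases Tet1, Tet2 and Tet3, the methyl-CpG binding genes Mbd1 and Mbd2, and Uhrf1. They were picked by symbol out of 16638 different single gene symbols in the deposited tables, and the row with the highest mean stood for a symbol with several rows. Of the 9 genes, 6 had a row of their own in at least 1 tissue: 5 in the CA1 field of the hippocampus and 6 in white blood cells (WBC). Tet1, Tet2 and Tet3 had no row under these symbols in either table and are not analysed here. Male Sprague Dawley rats of 200 to 240 g received a fluid percussion injury (TBI), a model in which a pressure pulse is driven onto the brain, or sham surgery. After 1 week they went through a learning test, and then CA1 and WBC were collected. The 16 libraries formed 4 groups of 4, a sham and a TBI group for each tissue. No source used here says whether libraries of the tissues came from the same rat or whether each library of a group is a separate rat, so a p-value here speaks for the spread among these libraries, which may be technical.

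In mammals a methyl group is placed on cytosine, mostly where guanine follows it (CpG). Dnmt1 copies the pattern onto the new strand when DNA is replicated, and Uhrf1 binds the hemimethylated site and brings Dnmt1 to it. Dnmt3a and Dnmt3b methylate sites that carried no mark. Dnmt3b is known for its role in the early embryo, while neurons, which no longer divide, still express Dnmt1 and Dnmt3a. The Tet enzymes oxidise the methyl group, using oxygen and 2-oxoglutarate, and base excision repair can then restore plain cytosine. Mbd1 and Mbd2 bind methylated CpG, and Mbd2 joins the mark to the NuRD complex, which remodels nucleosomes and removes acetyl groups from histones.

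Values were FPKM, fragments scaled to transcript length and library size, so levels of different genes could be set side by side within a table. The number of fragments behind a library is unknown. Summed FPKM ran from 1726843 to 3520669 in CA1 and from 482286 to 832725 in WBC. Markers of pyramidal neurons, the main cells of CA1, summed to 5910 to 7746 FPKM in CA1 sham and 6025 to 6512 in CA1 TBI, and all 4 B cell and all 7 cytotoxic markers measured there had means under 0.1 FPKM. Choroid plexus markers in CA1 ranged from 5.415 FPKM in sham 1 to 2726 in TBI 1. All 6 of these had a higher mean log2 value in CA1 TBI. All 7 pyramidal, all 5 astrocyte and all 6 endothelial markers had a lower one. The groups of 1 pyramidal and 3 endothelial markers did not overlap, against 1.6% of all CA1 rows with TBI lower. Oligodendrocyte markers split into 2 higher and 3 lower, and microglia markers into 2 and 4. The part of these cell types in the CA1 values was not tested. In WBC, T cell markers summed to 734 to 1007 FPKM in sham and 719 to 1076 in TBI. Neuronal markers also summed to 371 to 1155 FPKM over the 8 WBC libraries, with Rbfox3 under 0.1. Only 4 of these 7 markers averaged at least 1 FPKM there, 3 with a higher and 1 with a lower mean log2 value in TBI. How the sum splits over them is not given, so neurons in the blood cannot be read from it. Erythroid markers stood at 11440 to 18060 FPKM in WBC sham and at 4655 to 11360 in WBC TBI. Platelet markers stood at 6784 to 9274 and 2106 to 6208, and TBI 1 was lowest for both lists. In bulk libraries like these, fewer cells of a type and less RNA per cell cannot be told apart.

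The 250 bases before the transcription start of Dnmt1 and Dnmt3a are shown because these were the writers with the highest levels and those with the highest log2 differences of all members in WBC. The letters come from RefSeq (build GRCr8, not the rn5 build of the files), run 5′ to 3′ on the gene's strand, and have every CpG in capitals. The Dnmt1 stretch lies at chr8:27762842-27763091 on the minus strand and the Dnmt3a stretch at chr6:32598352-32598601 on the plus strand.
Dnmt1: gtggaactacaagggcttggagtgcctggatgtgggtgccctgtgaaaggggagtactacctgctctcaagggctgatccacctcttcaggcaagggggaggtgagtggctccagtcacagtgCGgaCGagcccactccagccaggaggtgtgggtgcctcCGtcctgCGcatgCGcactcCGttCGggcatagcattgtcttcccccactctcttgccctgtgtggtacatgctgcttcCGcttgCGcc
Dnmt3a: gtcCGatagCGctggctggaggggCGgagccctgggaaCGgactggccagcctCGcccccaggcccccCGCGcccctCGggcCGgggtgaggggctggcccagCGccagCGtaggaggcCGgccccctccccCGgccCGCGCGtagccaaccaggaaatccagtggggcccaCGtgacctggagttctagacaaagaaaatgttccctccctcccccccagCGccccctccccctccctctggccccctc
The Dnmt1 stretch held 9 CpG and the Dnmt3a stretch 18, against a median of 5 over 33469 such stretches of 27457 genes. RefSeq windows were found for 8 of the 9 genes, 15 windows in all, and none for Dnmt3b. The letters TTTCGCGC or TTTGGCGC, forms of the E2F motif of genes used in DNA replication, were searched on both strands (GCGCGAAA and GCGCCAAA on the other) in 300 bases, from 250 before to 50 after the start. They were present in 2 of the 15 windows, that of Dnmt1 and 1 of the 3 of Uhrf1, and in 0.792% of all windows. The Dnmt1 match is not contained in the 250 bases printed above. It therefore reaches into the 50 bases after the start, which are not shown. A match of letters is a description and not a binding site, and no methylation was analysed here.

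Most of the genes could be ordered by level within a tissue. In CA1, over the 8 libraries, Mbd2 averaged 23.0 FPKM, Mbd1 10.7, Dnmt1 6.14, Dnmt3a 4.88 and Dnmt3b 0.0843. Dnmt1 exceeded Dnmt3a in each of the 8 CA1 libraries, though their ranges overlapped, and Dnmt3a stood 57.9-fold above Dnmt3b. In WBC, Mbd2 averaged 84.2 FPKM, 7.58-fold above Dnmt1 at 11.1. Dnmt1 again exceeded Dnmt3a in 8 of 8 libraries with overlapping ranges. Dnmt3a at 9.50 and Mbd1 at 9.49 could not be ordered, since Dnmt3a was the higher in 4 of 8 libraries. Dnmt3b at 2.23 FPKM and Uhrf1 at 0.914 followed, each apart from its neighbours. Set side by side, sham levels in WBC were 31.3 times those in CA1 for Dnmt3b, 3.93 times for Mbd2, 1.86 times for Dnmt3a, 1.68 times for Dnmt1 and 0.875 times for Mbd1. The tables were normalized separately, so these ratios have no test. Dnmt3b in CA1 was so low (0.0701 ± 0.0280 FPKM in sham) that the size of the 31.3-fold and 57.9-fold ratios is uncertain. The former also leaves out a second, lower Dnmt3b row in WBC.

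**Figure D1:**
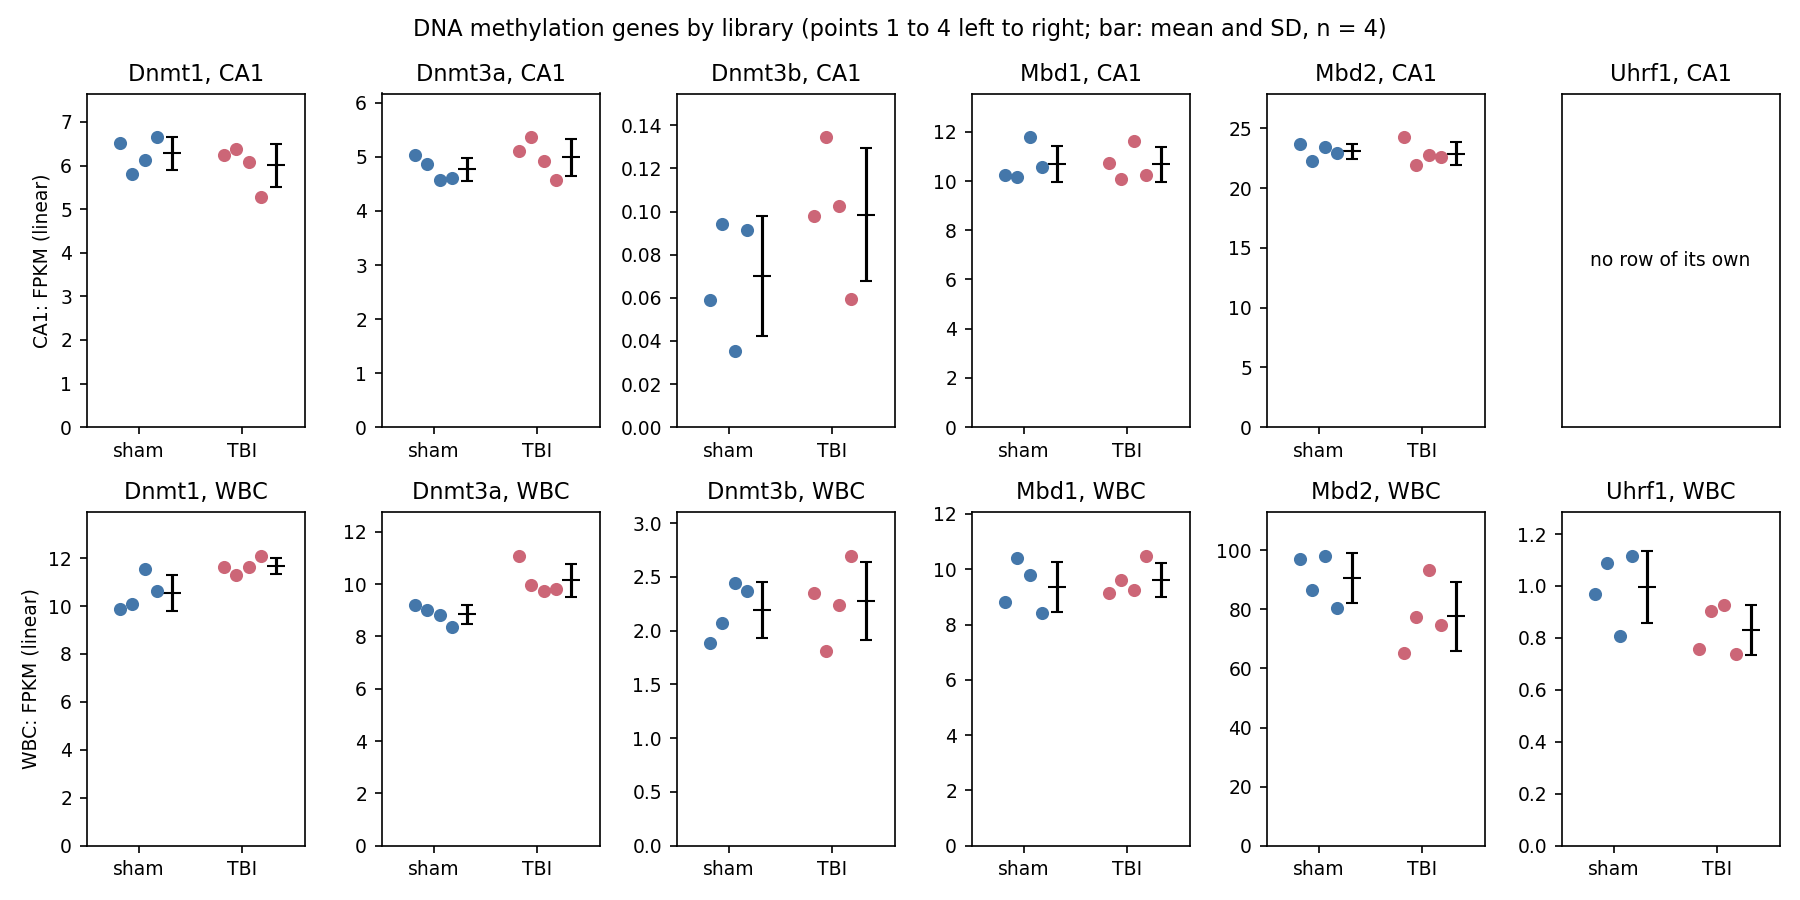
FPKM (linear axes from 0) of the 6 genes with a row, in CA1 (upper) and WBC (lower), 1 point per library in sham and TBI, with the mean and SD of 4 libraries beside them. The groups overlapped in every panel except Dnmt3a in WBC, where the 4 TBI libraries (9.74 to 11.1) lay above the 4 sham libraries (8.36 to 9.20).

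The first question was whether injury altered these genes in CA1. None of the 4 genes tested there passed, and each differed between the groups by under 5%. Injury was tested with limma on log2(FPKM + 0.5), in rows that averaged at least 1 FPKM, with Benjamini-Hochberg adjustment over all 14637 CA1 rows and a threshold of 0.05. In CA1, 1 row of 14637 passed (0.00683%).

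Dnmt1, the maintenance enzyme, stood at 6.52, 5.81, 6.13 and 6.65 FPKM in CA1 sham 1 to 4 and at 6.25, 6.39, 6.09 and 5.28 in TBI 1 to 4. Only TBI 4 lay outside the sham range, below it. The means were 6.28 ± 0.384 and 6.002 ± 0.497 (SD, n = 4 each), a log2 difference of -0.06 ± 0.08 (SE, limma adjusted p = 0.917). Dnmt3a, the enzyme for new methylation in neurons, stood at 5.03, 4.86, 4.58 and 4.61 in sham and at 5.12, 5.37, 4.92 and 4.57 in TBI. TBI 1 and 2 lay above all sham libraries and TBI 4 just below them. The means of 4.77 ± 0.214 and 4.99 ± 0.338 FPKM gave a log2 difference of 0.06 ± 0.07 (limma adjusted p = 0.908). Dnmt3b was listed between 0.0355 and 0.0942 FPKM in sham and between 0.0593 and 0.135 in TBI, under the minimum for a test. These values are so low that no change in Dnmt3b could be judged in CA1.

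The groups also overlapped for the readers. Mbd2 stood at 23.7, 22.3, 23.4 and 22.9 FPKM in CA1 sham and at 24.3, 21.9, 22.8 and 22.6 in TBI. With means of 23.1 ± 0.621 and 22.9 ± 0.994 the log2 difference was -0.01 ± 0.05, with a 95% interval from -0.13 to 0.10 (limma adjusted p = 0.977). Mbd1 stood at 10.3, 10.2, 11.8 and 10.6 FPKM in sham and at 10.7, 10.1, 11.6 and 10.2 in TBI. Both groups averaged 10.7 FPKM, and the 95% interval of the log2 difference ran from -0.16 to 0.16 (limma adjusted p = 0.995). None of the 4 genes had an unadjusted p under 0.05 in CA1, as 752 rows had (5.14%). None had groups that did not overlap, against 1.28% of rows with TBI higher and 1.6% with TBI lower.

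The next question was whether the same genes differed in the blood. In WBC none of the 5 genes tested passed, but the writers Dnmt1 and Dnmt3a lay 10.7% and 14.8% higher in TBI on average, and the reader Mbd2 lay 14.4% lower as deposited. None of 13413 WBC rows passed the adjusted threshold (0.0%), while 2727 had an unadjusted p under 0.05 (20.3%). A single gene at that level among these 5 is thus near the share of all rows.

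Dnmt3a stood at 9.20, 9.02, 8.81 and 8.36 FPKM in WBC sham 1 to 4 and at 11.1, 9.97, 9.74 and 9.82 in TBI 1 to 4. All 4 TBI libraries lay above all 4 sham libraries, as in 5.61% of rows tested, and TBI 1 was the highest. The means were 8.85 ± 0.362 and 10.2 ± 0.632 FPKM (SD, n = 4 each). The log2 difference was 0.19 ± 0.07 (SE), with a 95% interval from 0.02 to 0.35. The limma p was 0.0307 and the adjusted p 0.200, so Dnmt3a did not pass. The unadjusted limma p was 0.0580 without sham 3, 0.0808 without sham 4, 0.0831 without TBI 1 and 0.0501 with equal numbers as a replicate block. Dnmt1 stood at 9.89, 10.1, 11.5 and 10.6 FPKM in sham and at 11.6, 11.3, 11.6 and 12.1 in TBI. TBI 1, 3 and 4 lay above all sham libraries and TBI 2 below sham 3. The means of 10.5 ± 0.738 and 11.7 ± 0.329 gave a log2 difference of 0.14 ± 0.07 (limma adjusted p = 0.304).

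Dnmt3b had 2 rows in the WBC table. The higher row, which stands for the gene, held 1.89, 2.07, 2.44 and 2.37 FPKM in sham and 2.35, 1.81, 2.23 and 2.70 in TBI. The groups overlapped widely, with a log2 difference of 0.04 ± 0.14 and a 95% interval from -0.28 to 0.36 (limma adjusted p = 0.908). The second row held 1.18, 1.16, 1.65 and 1.86 FPKM in sham and 0.888, 0.691, 0.479 and 1.75 in TBI. Its TBI 1, 2 and 3 lay below all sham libraries and TBI 4 among them, and the log2 difference was -0.49 ± 0.27 (limma adjusted p = 0.352). Summed over both rows the sign of the Dnmt3b difference turned, to -0.17 (limma adjusted p = 0.632). The direction for Dnmt3b in WBC therefore depended on which row stood for it.

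**Figure D2:**
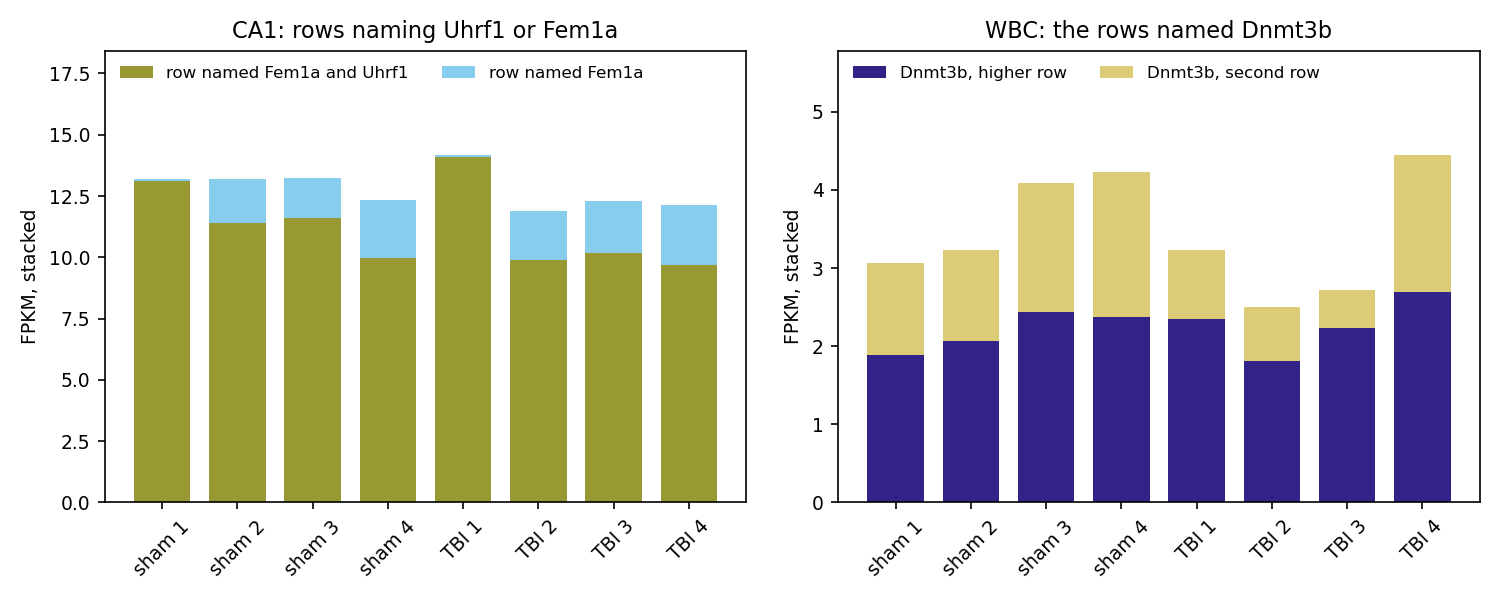
Stacked FPKM of rows that share a name, by library (bars from 0). Left, in CA1, the row named for both Fem1a and Uhrf1 and the row named Fem1a alone, the latter under 0.1 FPKM in sham 1 and TBI 1; right, the pair of rows named Dnmt3b in WBC, where the second was lowest in TBI 3 at 0.479 FPKM.

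Uhrf1, which brings Dnmt1 to newly copied DNA, was the member of lowest level in WBC. It stood at 0.970, 1.09, 0.808 and 1.12 FPKM in sham and at 0.759, 0.902, 0.926 and 0.738 in TBI. TBI 1 and 4 lay below all sham libraries, and all 4 TBI libraries below the sham mean. The means were 0.996 ± 0.140 and 0.831 ± 0.0968 FPKM, and the gene fell short of the 1 FPKM needed for the test. Without that minimum its log2 difference was -0.17 (limma adjusted p = 0.568). In CA1, Uhrf1 appeared only in a row named for Fem1a and Uhrf1 together. That row held 13.1, 11.4, 11.6 and 9.97 FPKM in sham and 14.1, 9.87, 10.2 and 9.69 in TBI. The row for Fem1a alone was at 0.0763 in sham 1 and 0.0784 in TBI 1, the libraries where the shared row was highest, and at 1.65 to 2.45 in the others. The sum of these rows ran from 12.3 to 13.3 FPKM in sham and from 11.9 to 14.2 in TBI. Reads of Fem1a and Uhrf1 cannot be told apart in the shared row, so no CA1 level is given for Uhrf1.

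Mbd2, the NuRD-linked reader, stood at 97.2, 86.6, 98.3 and 80.6 FPKM in WBC sham and at 65.2, 77.5, 93.2 and 74.7 in TBI. TBI 1, 2 and 4 lay below all sham libraries and TBI 3 within their range. The means were 90.7 ± 8.53 and 77.7 ± 11.6 FPKM, a log2 difference of -0.23 ± 0.12 as deposited (limma adjusted p = 0.327) that became 0.03 (limma adjusted p = 0.905) after quantile normalization. Without TBI 1, the library with the lowest erythroid and platelet marker sums, the differences were -0.15 for Mbd2, 0.15 for Dnmt3a and 0.14 for Dnmt1 (limma adjusted p = 0.538, 0.368 and 0.424). The erythroid and platelet sums of TBI 2, 3 and 4 also lay below those of every sham library. Leaving out TBI 1 therefore keeps the groups apart in these markers. Mbd1 stood at 8.82, 10.4, 9.78 and 8.42 FPKM in sham and at 9.13, 9.62, 9.25 and 10.5 in TBI, with a log2 difference of 0.04 ± 0.09 (limma adjusted p = 0.838). No member had all TBI libraries below all sham libraries in WBC, as 8.63% of rows had.

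All 9 erythroid markers tested had a lower mean in WBC TBI, 6 of them with groups that did not overlap, and so had all 6 platelet markers, 5 without overlap. The 7 cytotoxic markers had higher means, and their sums were 204 to 260 FPKM in sham and 234 to 417 in TBI. B cell sums were 620 to 816 and 400 to 755, neutrophil sums 667 to 1082 and 370 to 1233, and monocyte sums 129 to 174 and 119 to 144. The part of these cell types in the values of Dnmt1, Dnmt3a, Mbd2 and Uhrf1 was not tested.

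Whether injury acted differently in the blood and in CA1 was tested by the interaction term of 1 limma model over 7639 genes of both tables, in which each table kept its own mean. The smallest p among the 4 members was that of Dnmt1, whose injury difference was 0.20 ± 0.10 (log2, SE) greater in WBC than in CA1 (95% interval -0.01 to 0.42, limma adjusted p = 0.281). The difference was 0.13 ± 0.09 for Dnmt3a (adjusted p = 0.478) and 0.04 ± 0.11 for Mbd1 (adjusted p = 0.879). For Mbd2 it was -0.22 ± 0.13 (adjusted p = 0.376) as deposited and 0.04 after quantile normalization. None of the 4 passed, where 32 of 7639 genes did (0.419%), and none had an unadjusted p under 0.05, where 19.8% did. The unadjusted limma p of Dnmt1 was 0.0444 after quantile normalization, 0.0365 without CA1 sham 2, 0.0433 without CA1 TBI 2 and 0.0264 without WBC sham 3. That of Mbd2 was 0.0140 without WBC TBI 3. So no difference in injury response between the tissues was shown for these genes.

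**Figure D3:**
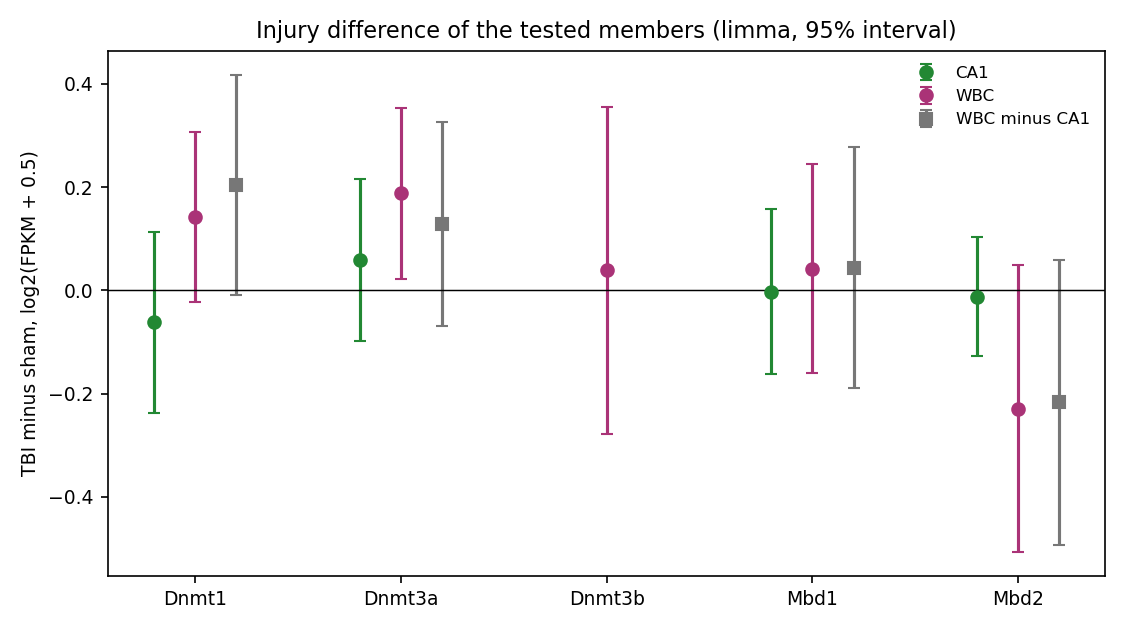
Injury difference, TBI minus sham on log2(FPKM + 0.5), of the tested members in CA1 and WBC and its difference between the tissues (WBC minus CA1), with limma 95% intervals. Every interval crosses 0 except that of Dnmt3a in WBC (0.02 to 0.35), whose adjusted p was 0.200.

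The members were also set against each other within each library. Of the methyltransferase FPKM in CA1, Dnmt1 made up 56.5 ± 1.93% in sham (54.0 to 58.6) and 54.1 ± 0.691% in TBI (53.3 to 54.8, SD, n = 4 each). Dnmt3a made up 42.9% and 45.04%, and Dnmt3b 0.631% and 0.877%. In WBC the shares of Dnmt1, Dnmt3a and Dnmt3b were 48.8, 41.1 and 10.1% in sham and 48.4, 42.1 and 9.41% in TBI. These WBC shares leave out the second Dnmt3b row (means 1.46 FPKM in sham and 0.952 in TBI), so they understate Dnmt3b there. Over the rows used, the shares of the writers differed between the groups by no more than a few percentage points in either tissue.

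The log2 ratio of Dnmt1 to Dnmt3a in CA1 averaged 0.36 in sham and 0.24 in TBI, a difference of -0.12 (2-sided exact permutation p = 0.0857, adjusted p = 0.357 over 5 ratios). In WBC the same ratio differed by -0.05 (exact permutation p = 0.571, adjusted p = 0.714). The ratio of Dnmt3a to Dnmt3b in WBC differed by 0.15 (exact permutation p = 0.257, adjusted p = 0.429). It differed by 0.36 with the rows of Dnmt3b summed, and by 0.0735 without TBI 2, 0.0907 without sham 4 and 0.24 without TBI 4. Mbd1 to Mbd2 differed by 0.27 in WBC, from -3.21 to -2.94 (exact permutation p = 0.143, adjusted p = 0.357), and by 0.01 in CA1 (exact permutation p = 0.8, adjusted p = 0.8). After quantile normalization the WBC difference of Mbd1 to Mbd2 was 0.0274. None of the 5 passed, but with 4 libraries against 4 the smallest p the test allows is 0.0286. A single ratio at that limit could not pass after adjustment over 5 ratios, so these tests could not show a difference in 1 ratio alone.

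The genes around the members were taken as 7 lists, and no gene of any list passed in either tissue. Over all rows, 1 of 14637 passed in CA1 and 0 of 13413 in WBC. A list's name does not give the function of every gene in it. Among the CA1 genes tested, 2 of 10 readers of methylated or unmethylated CpG had a higher mean in TBI and 8 a lower one. The split was 7 and 7 for demethylation and base excision and 3 and 9 for partners of the writers. It was 10 and 8 for the methionine cycle, 7 and 6 for 2-oxoglutarate supply, 4 and 6 for NuRD and 6 and 9 for cell division. The median log2 difference of each CA1 list lay between -0.04 and 0.03, beside -0.01 over all rows and -0.01 over the 4 members. Lig1, the ligase of replication, was the single list gene whose CA1 groups did not overlap. No overlap was found in 1.28% of all CA1 rows with TBI higher and in 1.6% with TBI lower. Lig1 stood at 2.99 ± 0.0748 FPKM in sham against 2.78 ± 0.0734 after injury (limma adjusted p = 0.891), and its groups overlapped after quantile normalization. The demethylation-linked Gadd45g was at 8.72 ± 2.83 and 10.5 ± 0.753 FPKM in CA1 (limma adjusted p = 0.891), and Gadd45a at 6.09 ± 1.03 and 5.24 ± 0.422 (limma adjusted p = 0.891).

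In CA1 the remaining genes chosen by smallest p within a list and direction also lay close to sham, all with a limma adjusted p of 0.891 or above. In the list of readers the log2 difference was 0.14 for Cxxc4 and 0.01 for Mbd3, and -0.21 for Zbtb38 and -0.11 for Cxxc5. Among genes of base excision it was 0.13 for the glycosylase Nthl1 and -0.19 for the ligase Lig3. In the list of partners of the writers, which is broader than that name, it was 0.06 for Dmap1 and 0.03 for Trdmt1. For Usp7, which removes ubiquitin from Dnmt1, it was -0.12. All of these lay within 0.3 of 0. In the methionine cycle it was 0.21 for Nnmt, 0.09 for Mat2b, -0.07 for Shmt2 and -0.11 for Ahcyl2. Around 2-oxoglutarate it was 0.12 for Sdhd, 0.18 for Idh2, -0.09 for Idh3a and -0.06 for Dlst. In NuRD it was 0.07 for Cdk2ap1, 0.06 for Hdac1, -0.11 for Mta2 and -0.09 for Hdac2. Cell division genes gave 0.13 for Ccnb1, 0.08 for Birc5, -0.20 for Gins2 and -0.15 for Mcm4.

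In WBC, outside the cell division list, the widest differences were those of a pair of genes linked to demethylation and DNA repair. Gadd45a, a stress-induced gene of this kind, averaged 79.3 ± 7.03 FPKM in sham and 42.1 ± 11.5 in TBI without overlap, a log2 difference of -0.94 ± 0.19 (limma adjusted p = 0.127). Its relative Gadd45g averaged 7.04 ± 0.953 and 3.74 ± 0.835 FPKM, also without overlap (-0.84 ± 0.16, limma adjusted p = 0.127). A further relative, Gadd45b, lay near sham with overlapping groups (-0.08 ± 0.18, limma adjusted p = 0.8385). Over all WBC rows tested, groups did not overlap in 5.61% with TBI higher and in 8.63% with TBI lower. Apart from Gadd45b, the list genes named here and below were picked by smallest p. Ogt, the enzyme that adds N-acetylglucosamine to proteins and binds Tet enzymes, averaged 69.98 ± 3.87 and 82.0 ± 6.64 (limma adjusted p = 0.184). The uracil glycosylase Smug1 averaged 2.75 ± 0.457 and 3.28 ± 0.113 (limma adjusted p = 0.330). Of the 16 genes of that list tested in WBC, 7 had a higher and 9 a lower mean as deposited, and 9 and 7 after quantile normalization.

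In the methionine cycle, which makes the methyl donor S-adenosylmethionine, 8 of 15 genes had a higher and 7 a lower mean in WBC TBI. Mat2a, the catalytic subunit of the enzyme that makes the donor, averaged 17.7 ± 0.854 FPKM in sham and 22.2 ± 1.01 in TBI without overlap (log2 difference 0.31 ± 0.07, limma adjusted p = 0.127). Mat2b, its regulatory subunit, averaged 53.1 ± 6.17 and 44.5 ± 1.48 FPKM, on the other side of sham (-0.24 ± 0.09, limma adjusted p = 0.189), and the groups overlapped after quantile normalization. Mtrr, which reactivates methionine synthase, averaged 17.7 ± 5.62 and 11.7 ± 1.26 (limma adjusted p = 0.207), and Mtap, of methionine salvage, 5.77 ± 0.455 and 7.28 ± 1.37 (limma adjusted p = 0.240). In the list on 2-oxoglutarate, the co-substrate of Tet enzymes, Ogdh averaged 46.4 ± 5.10 and 33.8 ± 4.55 FPKM (limma adjusted p = 0.135) and Dlst 98.1 ± 13.7 and 70.1 ± 17.7 (limma adjusted p = 0.215). Both are subunits of the enzyme complex that consumes 2-oxoglutarate, and for both the groups did not overlap as deposited. Those of Dlst overlapped after quantile normalization. D2hgdh, which breaks down a form of 2-hydroxyglutarate, averaged 1.76 ± 0.377 FPKM in sham against 1.85 ± 0.344 in TBI (limma adjusted p = 0.882). That list had 3 genes higher and 10 lower as deposited, but 9 higher and 4 lower after quantile normalization. The same normalization moved all WBC rows tested from 6647 higher and 6766 lower to 7807 higher and 5606 lower, and their median from -0.00 to 0.05, beside the splits of this and the other WBC lists.

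The 9 WBC genes of the NuRD list, Mbd2 among them, split into 3 higher and 6 lower as deposited and 8 higher and 1 lower after quantile normalization. Cdk2ap1, a small NuRD subunit, averaged 44.6 ± 3.09 FPKM in sham and 34.6 ± 2.31 in TBI without overlap (-0.36 ± 0.08, limma adjusted p = 0.127), and the groups overlapped after quantile normalization. Hdac1 averaged 19.96 ± 1.73 and 21.1 ± 1.14 (limma adjusted p = 0.636) and Mta1 16.3 ± 1.70 and 17.3 ± 1.89 (limma adjusted p = 0.734). Among the 9 reader genes tested, 6 had a higher and 3 a lower mean as deposited, and 8 and 1 after quantile normalization. Kdm2a, which binds unmethylated CpG, averaged 34.9 ± 1.82 and 39.2 ± 2.83 FPKM without overlap (limma adjusted p = 0.265). Cxxc4 averaged 8.56 ± 2.66 and 4.85 ± 1.51 (limma adjusted p = 0.192), and Cxxc5 37.1 ± 3.83 and 35.8 ± 8.96 (limma adjusted p = 0.844). Of 11 partners of the writers, 8 were higher and 3 lower in mean as deposited, and 10 and 1 after quantile normalization, with Pcna, the replication clamp that Dnmt1 binds, at 40.0 ± 5.03 and 37.6 ± 1.22 FPKM (limma adjusted p = 0.689). Cdca7 averaged 7.07 ± 2.61 and 5.73 ± 1.99 (limma adjusted p = 0.727). The histone methyltransferases Ehmt1 and Ehmt2 averaged 5.67 ± 0.681 and 29.8 ± 2.43 in sham against 6.47 ± 0.412 and 32.7 ± 2.01 in TBI (limma adjusted p = 0.357 and 0.384).

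Cell division genes were listed because Dnmt1 and Uhrf1 serve DNA replication. In WBC, 6 of 19 had a higher and 13 a lower mean in TBI, with a median log2 difference of -0.15 beside -0.00 over all rows and 0.04 over the 5 members. Tyms and Tk1, enzymes that supply thymidylate, averaged 9.03 ± 1.26 and 153 ± 44.6 FPKM in sham against 3.78 ± 1.42 and 82.5 ± 21.8 in TBI (limma adjusted p = 0.127 and 0.146). The groups overlapped for Tk1 and not for Tyms. Mcm4, of the replicative helicase, averaged 6.53 ± 0.676 and 8.03 ± 0.667 (limma adjusted p = 0.179), and Gins2, which works with that helicase, 11.99 ± 0.501 and 12.7 ± 0.904 (limma adjusted p = 0.614). The rule names up to 2 genes in each direction, so the mixed signs of these named genes follow from the rule. In this list, 1 higher and 5 lower genes had an unadjusted limma p under 0.05. Over all 13413 WBC rows these counts were 1049 higher and 1678 lower. Dnmt1 was higher in mean, and Uhrf1, under the minimum for the test, was lower in mean. The erythroid and platelet marker sums given above moved with the groups beside all of these WBC lists, and their part was not tested.

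**Figure D4:**
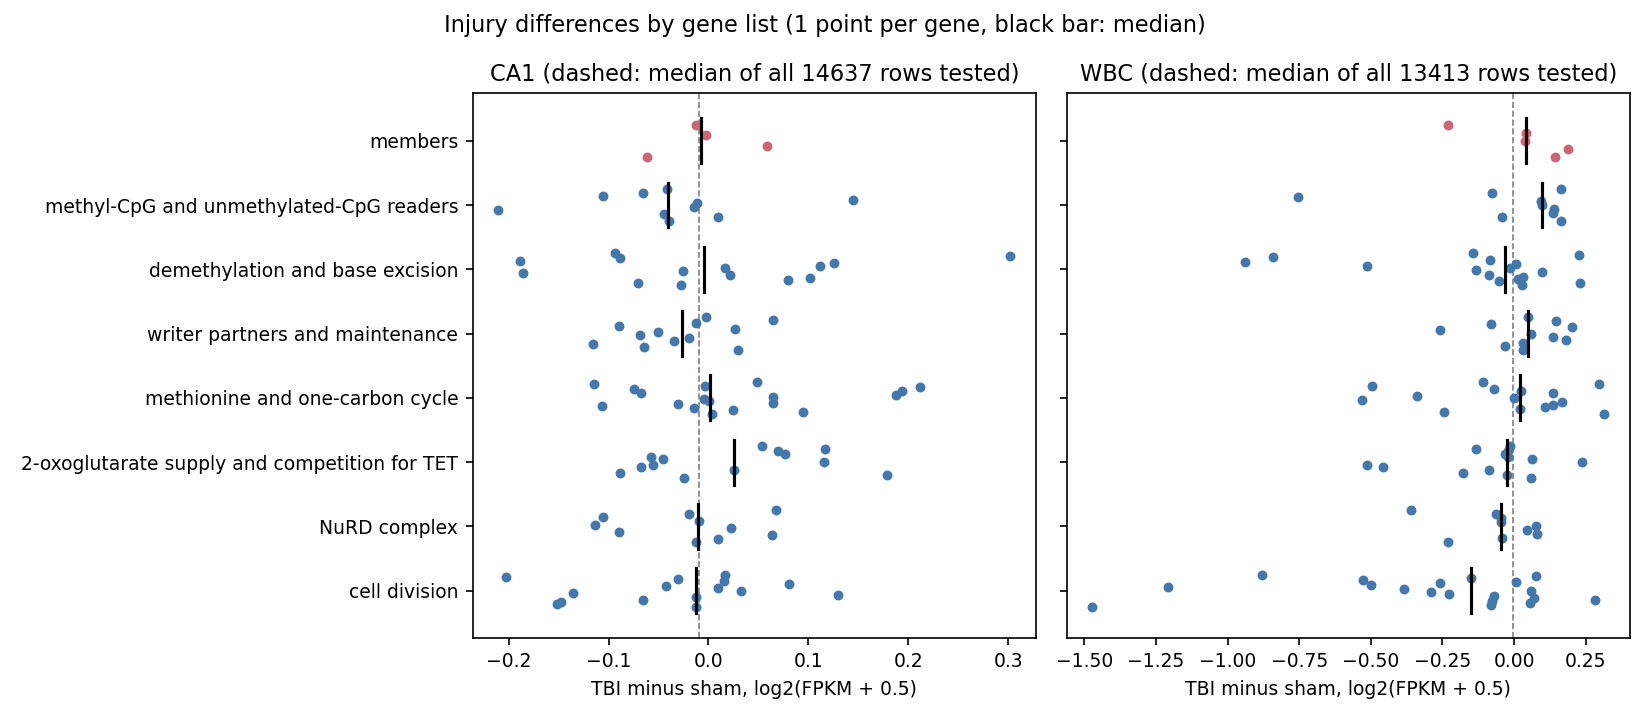
Injury difference, TBI minus sham on log2(FPKM + 0.5), of each tested gene in CA1 (left) and WBC (right; the axes differ in range), 1 point per gene, with a black bar at each list's median and a dashed line at the median of all rows. The members lie within 0.1 of 0 in CA1, and from -0.23 (Mbd2) to 0.19 (Dnmt3a) in WBC.

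For the 3 members with the widest injury difference in each tissue, the rows most like them over the 8 libraries were found by the root-mean-square (RMS) difference of log2 values, each centred on its own mean. Among 9232 named WBC rows, those nearest to Dnmt3a were Mnt (RMS difference 0.0297), Dhrs1 (0.0309) and Fmnl1 (0.0323). Nearest to Dnmt1 were Phf5a (0.0337), Atxn2l (0.0353) and Smc1a (0.0357). Nearest to Mbd2 were Prdx3 (0.0563), Aimp1 (0.0623) and Pdzd11 (0.0654). Among 10832 named CA1 rows, Dnmt1 was nearest to Jdp2 (0.0248), Dnmt3a to Lrrc28 (0.0288) and Mbd2 to a row named for Flad1 and Lenep (0.0160). Such likeness over 8 libraries that share a table's scaling is a description only.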

How the data were processed

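The authors deposited 1 table per tissue of FPKM values, with a status per value and 8 libraries each. Per the submitters' processing notes the tools were TopHat, TopHat2, Bowtie, Bowtie2, Cufflinks and Cuffdiff with build rn5. Not given in the sources used here are tool versions, gene annotation and the scaling between libraries. Per the labels' protocols, poly-A RNA was taken from some 1000 ng of total RNA and copied with random hexamers. Columns were matched to samples by name, and none was left without one.

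The CA1 table held 26031 rows (8207 with no gene name, 310 with several) and that of WBC held 24779 (7054 and 309). Rows averaging at least 1 FPKM over the 8 libraries, with every status OK, were tested, which left out 96 CA1 and 15 WBC rows on status. Values were log2(FPKM + 0.5), so a fold change of a low gene is understated. The tests were limma 3.58.1 (lmFit, eBayes with trend, 2-sided) within a tissue and, by interaction term, between tissues, with Benjamini-Hochberg adjustment, and exact permutation tests for ratios. Scripts were tested on simulated data. FPKM gives no counts, so depth is unknown and no counting interval is given. Steps between low FPKM values gave a relative depth in 3 libraries only (0.993 in CA1 TBI 4, and 1.01 and 1.11 in WBC sham 3 and 4, relative to sham 1).

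The members and gene lists were chosen with earlier results of these data known. All members were named, and from each list and tissue up to 2 genes per direction with the smallest p. Gadd45b in WBC was added beside its relatives Gadd45a and Gadd45g. Some genes that this rule names are not reported here, though the list counts include them. Alternatives were pseudocounts of 0.1 and 1, no minimum or 5 FPKM, median-ratio and quantile normalization, no trend, array weights, a replicate block, summed rows and leaving out each library. Ratios under both normalizations were added after the data were seen. RefSeq promoter windows are of build GRCr8. R 4.3.3 ran limma, and Python 3.11.15 ran the rest, with matplotlib 3.10.9, pandas 2.3.3, scipy 1.17.1 and numpy 2.4.6.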

Additional observations from a re-analysis of the deposited data

How the results depend on the processing

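No member passed the adjusted threshold under any alternative run, in either tissue or between tissues. No ratio passed either, but with a library left out the smallest exact permutation p is 0.0571. Those ratio runs could not pass whatever the values. The number of rows called moved more. In CA1 it was 1 as reported, 3 without the trend, 3 with array weights, and 1 to 2 when each library was left out. In WBC it was 0, and 0 to 4 when each library was left out (4 without TBI 2). Between tissues it was 32 as reported, 13 with no minimum, 20 with a minimum of 5 FPKM, 286 with array weights and 6 to 224 when each library was left out (6 without CA1 TBI 4, 224 without WBC TBI 3). The rows tested between tissues numbered 7639 as reported, 12468 with no minimum and 5071 with the minimum of 5 FPKM. The cause of these moves was not tested.

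Equal numbers are the only link the labels give between samples, and the main tests, also that between tissues, used no pairing. The correlations of same-numbered deviations were 0.02 to 0.24 for sham with TBI in CA1 and -0.01 to 0.15 in WBC. Between tissues each of the 8 libraries correlated best with its own number (0.07 to 0.21), a hint from the data and not the design. With equal numbers as a replicate block the call count between tissues was 3, that of CA1 1 and that of WBC 0. The adjusted p of Dnmt3a in WBC was 0.255 with the block.

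Signs turned only for differences near 0 or for Mbd2 and Dnmt3b in WBC. Mbd1 in CA1 was 0.00476 with median-ratio scaling, 0.00595 with quantile normalization, 0.00111 with array weights and -0.0432 to 0.0432 when each library was left out. Mbd2 in WBC was 0.0290, and between tissues 0.0382, after quantile normalization. Dnmt3b in WBC was -0.17 with summed rows. Leaving out each library gave -0.0401 to 0.00790 for Mbd2 in CA1, -0.0331 to 0.123 for Dnmt3b in WBC, -0.00463 to 0.0914 for Mbd1 in WBC, -0.00225 to 0.0938 for Mbd1 between tissues and -0.0329 to 0.0480 for the ratio of Mbd1 to Mbd2 in CA1. In WBC the unadjusted p of Dnmt1 was 0.0342 without sham 3 and that of Mbd2 0.0202 without TBI 3. The difference of Dnmt3a in WBC stayed between 0.15 and 0.21 over all alternatives (adjusted p 0.164 to 0.368) and Dnmt1 in WBC between 0.11 and 0.18 (0.248 to 0.472). Unknown depth limits what can be said of Dnmt3b in CA1 and Uhrf1 in WBC.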
